A study of Mus musculus with 13 samples.

Results

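Fto is a long mouse gene on chromosome 8, and 5-hydroxymethylcytosine (5hmC) was followed along it in knee cartilage. The authors deposited 3 tables of regions that differ between groups, and the rows described here are those whose nearest gene is given as Fto. There were 108 such rows of 181833 in all, of which 39 came from MUT DMM against WT DMM, 63 from MUT DMM against WT sham and 6 from WT DMM against WT sham. Fto (gene ID 26383) is annotated from 91313367 to 91668433 (mm10), a length of 355067 bases. No row lay wholly before the gene, and 7, 9 and 2 rows of these tables, in the same order, lay past its end, the farthest 64.4 kb beyond it. The rows were chosen by the authors' window p-value, at most 0.0001 in the tables, on these same libraries, so the levels and directions below describe rows chosen for a difference and are not tests of one.

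The labels give 13 samples of knee cartilage from male mice of strain B6;129S4, all taken 6 weeks after surgery. The groups used were MUT DMM (genotype written TET-/-, destabilisation of the medial meniscus), WT DMM (TET1+/+, the same operation) and WT sham (TET1+/+, knee opened only). The mice were 3 to 4 months old by the series' design text and 4 to 6 months old by the treatment protocol. MUT sham samples and a background control made without the glucosyltransferase are not analysed here, so the genotype without the operation and the background level are not given. MUT DMM against WT sham differs in genotype and operation together. Which exons of Tet1 the mutant lacks is not stated in the labels. The design text calls the replicates biological and the protocol puts each control on the opposite leg, but neither says whether each library is a separate animal.

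The method was reduced representation hydroxymethylation profiling. MspI cuts CCGG, adapters are ligated, a glucosyltransferase adds glucose to 5hmC, and a second MspI cut destroys fragments whose ends carry no 5hmC. Levels are the authors' normalised counts, which are scaled differently in each table and are compared only within one. Of the 3 entries of MUT DMM, a pair was identical in every row and was counted once, which leaves a deeper and a shallower MUT DMM library (n = 2), against 3 WT DMM and 3 WT sham libraries. In the rows of MUT DMM against WT DMM these libraries held 5889464 and 407929 reads, against 52972, 1961515 and 2899132 reads in WT DMM. The first WT DMM entry was a near-empty library, at 0 in 64.4% of the rows of that table and in 95.8% of the rows of WT DMM against WT sham. Values below are given in that order, deeper then shallower for MUT DMM and as listed for the other groups, so the first WT DMM value is the near-empty library's. A single read in MUT DMM against WT DMM was worth 0.234 and 3.55 normalised counts in the MUT DMM libraries, against 9.56, 0.752 and 0.609 in the WT DMM libraries. The authors' adjusted p-values in both MUT DMM comparisons go with all 3 MUT DMM entries listed. Whether their test counted the identical pair as separate libraries is not known, so these p-values may not be for n = 2. In bulk cartilage, a change in the share of cells that carry 5hmC at a site, in the makeup of the tissue or in the 5hmC of each cell cannot be told apart. A fragment is also read only where its CCGG is intact. Whether the groups differ in DNA sequence at these sites was not tested, so a difference in counts need not be a difference in 5hmC.

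Fto encodes a dioxygenase of the AlkB family that removes methyl groups from adenine in RNA, mainly N6-methyladenosine (m6A). It uses iron and 2-oxoglutarate, as the TET enzymes do when they oxidise 5-methylcytosine to 5hmC. In humans, variants in its introns are linked to body weight and act at least in part on the neighbouring Iroquois genes. In gene bodies, 5hmC is often found in transcribed genes. Transcription was not measured in these tables.

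Fto shares its start with Rpgrip1l, which encodes a protein of the base of the primary cilium and runs the other way. The sequence before an Fto transcript start is shown because a row covers it in both MUT DMM tables. It is RefSeq's, assembly GRCm38.p6, plus strand, chr8:91313275-91313524, and ends 1 base before the transcript start at 91313525. The annotated gene bounds, from which distances in kb are measured, begin earlier, at 91313367. Part of the sequence, with its CCGG, therefore lies inside those bounds. The recognition site of MspI, CCGG, is in capitals.
Fto promoter: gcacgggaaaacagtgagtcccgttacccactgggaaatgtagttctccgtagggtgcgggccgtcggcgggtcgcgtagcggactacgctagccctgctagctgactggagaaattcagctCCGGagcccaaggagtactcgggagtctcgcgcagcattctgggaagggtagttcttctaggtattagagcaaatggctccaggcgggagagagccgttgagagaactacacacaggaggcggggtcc
The only CCGG of these 250 bases lies at 91313397 to 91313400, which is 128 bases before the transcript start. CCGG reads the same on both strands, and 52.8% of 32851 promoter windows of 300 bases (250 before the start and 50 after it) hold at least 1. The corresponding Rpgrip1l window, 91313173 to 91313472 on the minus strand, overlaps the sequence shown, so a row here cannot be given to Fto alone.

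At this promoter the normalised counts of the listed rows were higher in MUT DMM than in either wild-type group. The row from 91313261 to 91313540 had 10.53 and 3.55 normalised counts in MUT DMM (45 reads and 1 read), against 0, 0.75 and 0 in WT DMM (0, 1 and 0 reads). Its mean was 7.04 ± 4.94 (SD, n = 2) in MUT DMM and 0.25 ± 0.433 (SD, n = 3) in WT DMM, and the authors' deposited table gives an adjusted p of 0.000867. Against sham, the row from 91313261 to 91313700 had 39.76 and 18.89 normalised counts in MUT DMM, against 2.12, 4.63 and 1.94 in WT sham. In each table both MUT DMM libraries were above every wild-type library, although the shallower one rested on 1 and 2 reads. The mean against sham was 29.3 ± 14.8 in MUT DMM and 2.9 ± 1.5 in WT sham, a 10.1-fold higher level, with an adjusted p of 1.53e-05 in the authors' deposited table. WT DMM against WT sham lists no row here.

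**Figure D1:**
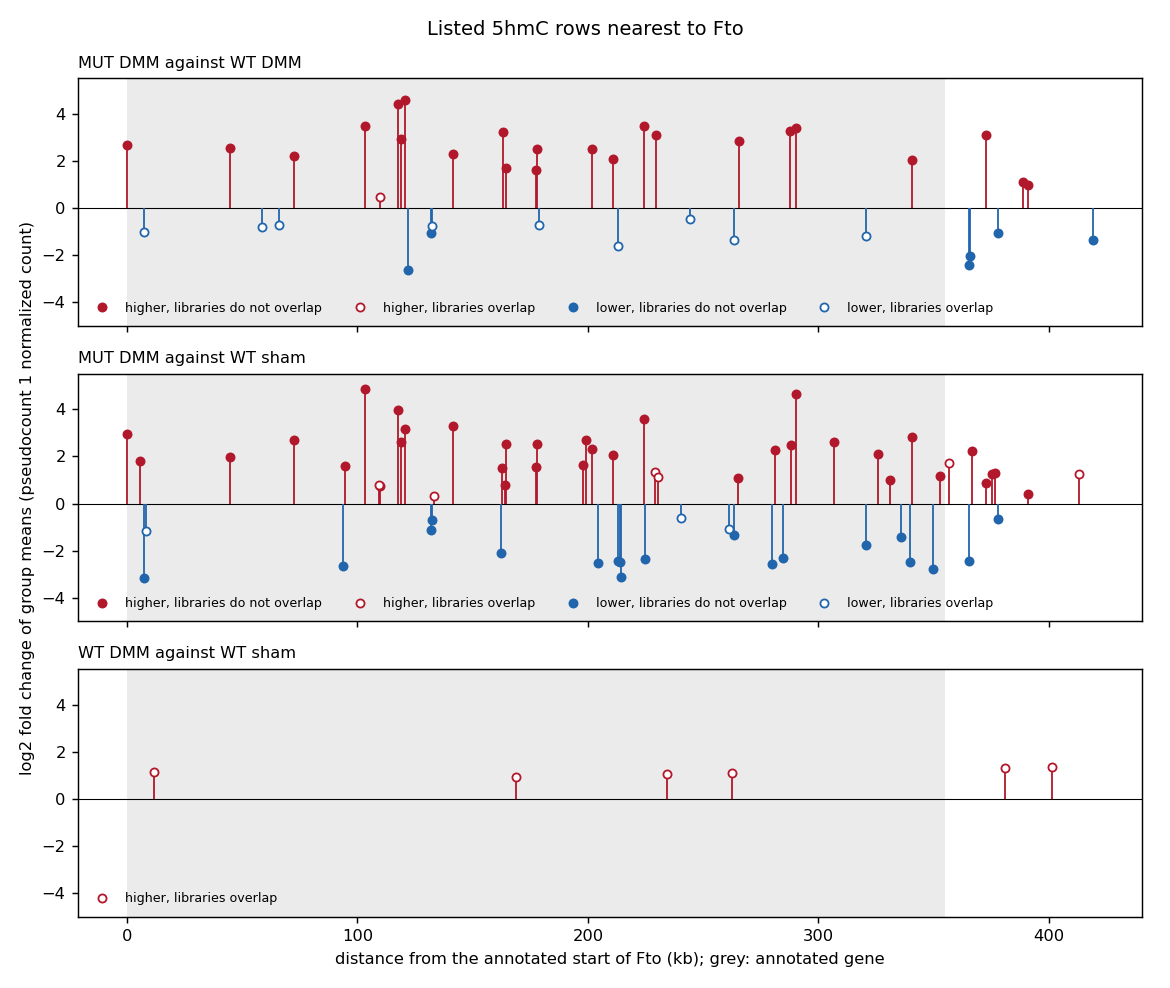
Log2 fold change of the group means (with a pseudocount of 1 normalised count) of each Fto row against its distance from the annotated gene start in kb, with 1 panel per table and the gene in grey. Filled points are rows in which all libraries of one group lie beyond all of the other. Higher rows (red) outnumber lower rows (blue) in both MUT DMM panels, and WT DMM against WT sham has 6 rows, all higher.

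Most Fto rows were higher in mutant cartilage. In MUT DMM against WT DMM, 24 of the 39 rows were higher and 15 lower at the authors' adjusted p under 0.05, that is 61.5% higher, where 34.6% of all rows of the table were higher and 65.4% lower. Against WT sham, 62 of 63 rows passed, 40 of them higher and 22 lower (64.5% higher), where 43.5% of all rows were higher and 56.5% lower. The row that did not pass, from 91446621 to 91446960, had an adjusted p of 0.064 in the authors' deposited table, with 22.83 and 0 normalised counts in MUT DMM against 7.95, 10.42 and 8.32 in WT sham. In WT DMM against WT sham all 6 rows were higher, where 93.4% of all rows were higher and 6.55% lower. Both MUT DMM tables use the same MUT DMM libraries, so their shares are not independent of each other. Among 21150 genes with rows in MUT DMM against WT DMM, Fto had the most higher rows and ranked 8th by all rows. Fto ranked 3rd of 21906 genes by higher rows and 2nd by all rows in MUT DMM against WT sham. These ranks count rows with no allowance for gene length, which is 355.1 kb at Fto. Fto was chosen with earlier results of these data known, so its ranks are descriptions only.

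Most higher rows of MUT DMM against WT DMM had a low WT DMM level. In MUT DMM their median level was 13.53 normalised counts, against 0.98 in WT DMM, and the median log2 fold change was 4.08, where it was 1.04 over all higher rows of the table. In 5 of the 24 rows WT DMM was at 0, and these enter the median as infinite folds. With a pseudocount of 1 the medians were 2.62 for Fto and 1.0 over all higher rows. Over all higher rows the medians were 32.6 in MUT DMM and 15.69 in WT DMM. Both MUT DMM libraries lay above every WT DMM library in 23 of the 24 rows, compared with 67.0% of all higher rows. In 22 of the 24 the near-empty library had no read, and without it the count was again 23, compared with 70.5%. The shallower MUT DMM library had between 1 and 73 reads in these rows and 2 or fewer in 12 of them.

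Along the gene, higher rows formed 3 unbroken runs of at least 3 rows in MUT DMM against WT DMM. The longest run held 6 rows over 48.3 kb, from 91386061 to 91434320, and began 72.7 kb into the gene. Its first row had 3.74 and 3.55 normalised counts in MUT DMM and its second, at 91416641, had 6.08 and 14.22, and both were at 0 in all 3 WT DMM libraries. The third row, from 91423301 to 91423900, had the highest 5hmC of any Fto row, with 295.04 and 259.46 normalised counts in MUT DMM, against 57.36, 169.99 and 373.18 in WT DMM. Here the groups overlapped, and the means of 277.2 ± 25.2 in MUT DMM and 200.2 ± 160.0 in WT DMM differed by less than the WT DMM SD. Without the near-empty library, which had 6 reads here, the means were 277.25 in MUT DMM and 271.59 in WT DMM. Among the 24 higher Fto rows this row was the only one whose libraries overlapped, although the authors' deposited table gives it an adjusted p of 0.000305.

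The last 3 rows of that run stood farther apart. From 91430961 to 91431380 MUT DMM had 54.52 and 85.3 normalised counts (233 and 24 reads), against 0, 1.5 and 5.48 in WT DMM (0, 2 and 9 reads). The mean was 69.9 ± 21.8 (SD, n = 2) in MUT DMM and 2.33 ± 2.83 (SD, n = 3) in WT DMM, a 30.0-fold higher level, with an adjusted p of 2.11e-05 in the authors' deposited table. At 91432341 the values were 9.36 and 17.77 in MUT DMM, against 0, 1.5 and 1.22 in WT DMM. From 91433901 to 91434320 they were 48.2 and 92.41 in MUT DMM (206 and 26 reads), against 0, 2.26 and 3.65 in WT DMM, 35.7-fold higher. At each of these 3 rows the shallower MUT DMM library was above the deeper one.

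The second run held 5 rows over 37.0 kb, from 91454621 to 91491660. Its first row also overlaps the long noncoding RNA gene 4831440D22Rik (91450612 to 91467763) and had 4.21 and 3.55 normalised counts in MUT DMM (18 reads and 1 read), with no read in WT DMM. At 91476381 MUT DMM had 9.83 and 7.11 (42 and 2 reads), again with no read in any WT DMM library, and the authors' deposited table gives an adjusted p of 5.68e-06. At 91477961 the values were 11.23 and 7.11 in MUT DMM, against 0, 4.51 and 1.83 in WT DMM. The remaining rows of the run, at 91490681 and 91491401, lie 380 bases apart. The row at 91490681 had 14.27 and 14.22 in MUT DMM, against 0, 4.51 and 7.31 in WT DMM. At 91491401 the levels were 4.91 and 7.11 in MUT DMM, against 0, 0.75 and 0 in WT DMM. In all 5 rows the groups did not overlap.

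The third run held 3 rows over 25.5 kb, from 91578741 to 91604220. Its first row had 16.61 and 10.66 normalised counts in MUT DMM, against 0, 0.75 and 2.44 in WT DMM, with an adjusted p of 1.53e-05 in the authors' deposited table. At 91601261 MUT DMM had 14.27 and 35.54, against 0, 0.75 and 4.26 in WT DMM. The row from 91603821 to 91604220 had, in the authors' deposited table, an adjusted p of 1.8e-06, the smallest of the Fto rows of MUT DMM against WT DMM. It had 11.93 and 7.11 normalised counts in MUT DMM (51 and 2 reads) and no read in any of the 3 WT DMM libraries.

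Other higher rows stood outside these runs, alone or in pairs. Before the first run, at 91358101, MUT DMM had 20.36 and 14.22 normalised counts, against 0, 1.5 and 4.87 in WT DMM. At 91515081 it had 11.23 and 7.11, against 0, 0 and 2.44 in WT DMM, and at 91524481 it had 14.51 and 21.33, against 0, 3.76 and 6.7 in WT DMM. The groups were separate in all of these. At 91537581 the values were 21.99 and 7.11 in MUT DMM (94 and 2 reads), against 0, 0 and 1.22 in WT DMM (0, 0 and 2 reads), with an adjusted p of 1.4e-05 in the authors' deposited table. At 91542801 they were 19.89 and 7.11 in MUT DMM, against 0, 1.5 and 0.61 in WT DMM. At 91654201, close to the end of the gene, they were 9.83 and 7.11 in MUT DMM, against 0, 1.5 and 2.44 in WT DMM. Beyond the gene, 3 further rows were higher. At 91686281 MUT DMM had 12.63 and 7.11, against 0, 0.75 and 0 in WT DMM. At 91704221 the fold was smaller, with 29.71 and 28.43 in MUT DMM against 0, 22.57 and 19.48 in WT DMM.

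**Figure D2:**
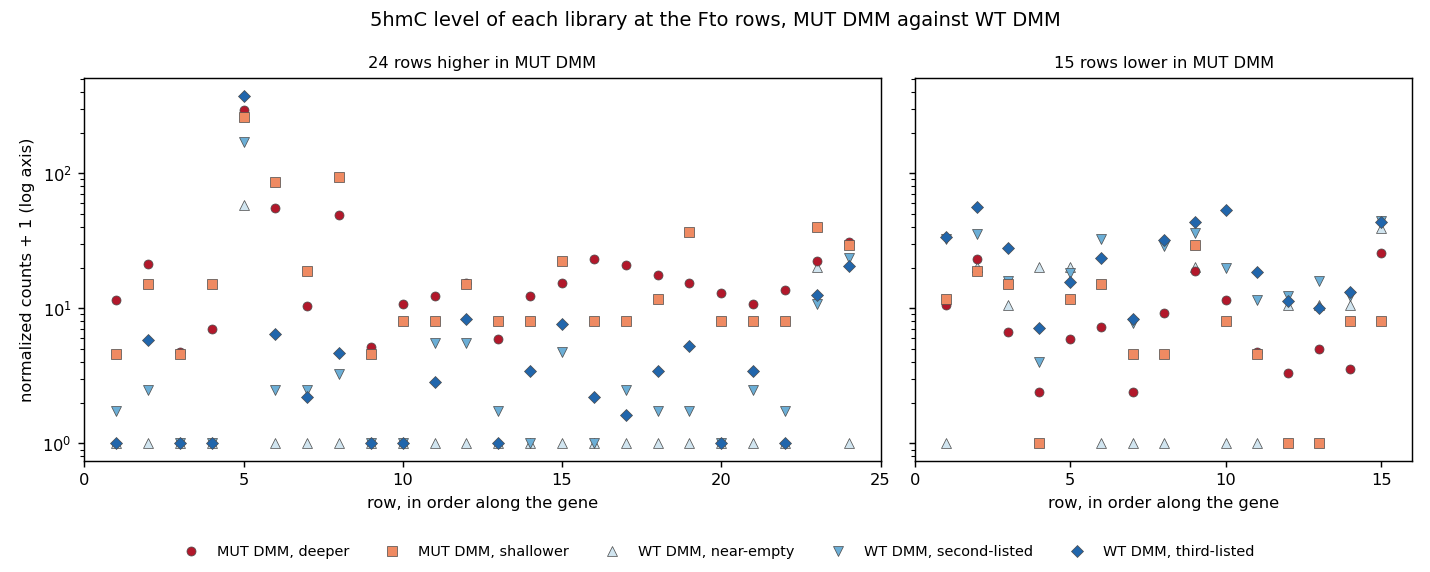
Level of each library (normalised counts + 1, log axis) at the 24 higher and 15 lower Fto rows of MUT DMM against WT DMM, in order along the gene. Points at 1 are libraries with no read, which in most higher rows include the near-empty WT DMM library, and the fifth higher row is the one of highest level, at which the groups overlap.

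Lower rows of MUT DMM against WT DMM had more wild-type 5hmC and smaller folds. At the lower Fto rows median levels were 7.78 normalised counts in MUT DMM, against 17.13 in WT DMM. Their median log2 fold change was -1.19, close to -1.12 over all lower rows. Both MUT DMM libraries lay below every WT DMM library in 6 of the 15 rows, compared with 28.6% of all lower rows. In 6 of the 15 the near-empty library had no read, where no separation was possible, and without it all 15 separated, compared with 81.7% of all lower rows. The row of smallest adjusted p, 1.4e-05 in the authors' deposited table, lay from 91678641 to 91679020, 10.2 kb past the end of the gene. It had 2.34 and 0 normalised counts in MUT DMM, against 9.56, 11.28 and 10.35 in WT DMM, with means of 1.17 ± 1.65 in MUT DMM and 10.4 ± 0.861 in WT DMM. The small WT DMM SD includes the near-empty library, whose level came from 1 read.

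The row from 91320621 to 91321000, near the start of the gene, had 9.59 and 10.66 normalised counts in MUT DMM, against 0, 31.59 and 32.87 in WT DMM. Its means of 10.1 ± 0.757 in MUT DMM and 21.5 ± 18.6 in WT DMM differed by less than the WT DMM SD, and the authors' deposited table gives an adjusted p of 3.18e-05. A run of 3 lower rows over 10.5 kb, from 91435461 to 91445940, followed directly on the longest higher run. Its first row had 1.4 and 0 in MUT DMM, against 19.12, 3.01 and 6.09 in WT DMM. At 91445341 MUT DMM had 4.91 and 10.66, against 19.12, 17.3 and 14.61 in WT DMM, and the groups were separate. At 91445681 it had 6.32 and 14.22, against 0, 31.59 and 22.52 in WT DMM. Further along, 91526701 had 8.19 and 3.55 in MUT DMM, against 0, 27.83 and 31.05 in WT DMM. At 91576841 the values were 10.53 and 7.11 in MUT DMM, against 0, 18.8 and 52.36 in WT DMM. At both, the near-empty library was the only wild-type library not above MUT DMM.

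Near and past the end of the gene, lower rows alternated with the higher ones. At 91634301 MUT DMM had 3.74 and 3.55 normalised counts, against 0, 10.53 and 17.65 in WT DMM. At 91691161 it had 2.57 and 7.11, against 9.56, 11.28 and 12.18 in WT DMM, and the authors' deposited table gives an adjusted p of 4.65e-05. The last row, from 91732641 to 91732860, had 24.8 and 7.11 in MUT DMM, against 38.24, 43.63 and 42.61 in WT DMM. The groups did not overlap at either of these last rows, and the second was 2.6-fold lower in MUT DMM, with means of 16.0 ± 12.5 in MUT DMM and 41.5 ± 2.86 in WT DMM.

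Against sham, Fto in mutant cartilage also had more higher than lower rows. The 40 higher rows had a median of 33.93 normalised counts in MUT DMM and 6.92 in WT sham, with a median log2 fold change of 2.22 (1.27 over all higher rows of the table), or 2.02 with a pseudocount of 1 (1.23 over all). Both MUT DMM libraries were above every WT sham library in 35 of the 40, compared with 75.2% of all higher rows. The 22 lower rows had medians of 3.13 in MUT DMM and 18.66 in WT sham, with a median log2 fold change of -2.74 (-4.17 over all lower rows), or -2.35 with the pseudocount (-2.55 over all), and the groups were separate in 19, compared with 87.5%. In 4 lower rows no MUT DMM library had a read, and in 1 higher row no WT sham library had one. The shallower MUT DMM library was at 0 in 13 of the 22 lower rows and had 2 reads or fewer in 18, so its zeros there limit how low a level could be seen.

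The higher rows of smallest adjusted p against sham were spread over the gene. From 91654181 to 91654580 MUT DMM had 30.93 and 18.89 normalised counts, against 2.65, 3.47 and 1.94 in WT sham. The means were 24.9 ± 8.51 in MUT DMM and 2.69 ± 0.766 in WT sham, 9.27-fold higher, and the adjusted p in the authors' deposited table was 2.48e-07. From 91358101 to 91358600 the levels were 69.22 and 47.24 in MUT DMM, against 10.08, 23.15 and 8.6 in WT sham, 4.18-fold higher (adjusted p of 4.47e-07 in the authors' deposited table). The groups were separate in each. At 91454621 MUT DMM had 13.25 and 9.45 (18 reads and 1 read), against 0.53, 0 and 0.28 in WT sham (1, 0 and 1 reads). At 91476261 it had 35.34 and 18.89, against 7.95, 6.95 and 11.65 in WT sham, 3.06-fold higher. The authors' deposited table gives adjusted p values of 5.5e-07 and 1.35e-06 for these rows.

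Along the gene, 4 runs of at least 3 higher rows and 2 of lower rows were found. A run of 7 higher rows over 26.6 kb, from 91407821 to 91434420, overlaps the longest run of MUT DMM against WT DMM. Its strongest row in level, from 91423301 to 91423960, had 928.54 and 689.64 normalised counts in MUT DMM, against 462.92, 558.02 and 421.09 in WT sham. Unlike in the comparison with WT DMM, the groups were separate here, with means of 809.1 ± 169.0 in MUT DMM and 480.7 ± 70.2 in WT sham and a 1.68-fold higher level in MUT DMM. From 91430921 to 91431500 the values were 172.31 and 226.73 in MUT DMM, against 14.32, 13.89 and 7.77 in WT sham, 16.6-fold higher. The authors' deposited table gives that row an adjusted p of 0.0134, the second largest of the Fto rows in that comparison. The same run held 91416461, with 19.15 and 47.24 in MUT DMM against 0, 0 and 0.55 in WT sham. It also held 91432181, with 31.66 and 47.24 in MUT DMM against 5.83, 4.63 and 6.38 in WT sham, and 91434141, with 13.25 and 18.89 in MUT DMM against 2.65, 0 and 0 in WT sham.

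The longest run held 8 higher rows over 39.2 kb, from 91476261 to 91515420. At 91477961 MUT DMM had 35.34 and 18.89 normalised counts, against 3.18, 1.16 and 7.49 in WT sham. At 91490661 the values were 44.92 and 37.79 in MUT DMM, against 9.54, 17.37 and 13.04 in WT sham. At 91491401 they were 27.24 and 37.79 in MUT DMM, against 8.48, 1.16 and 4.72 in WT sham. At 91515081 they were 47.86 and 47.24 in MUT DMM, against 9.01, 10.42 and 7.21 in WT sham. The groups were separate at all of these, and at the last the means were 47.5 ± 0.438 in MUT DMM and 8.88 ± 1.61 in WT sham, 5.35-fold higher. A weaker row of the run, at 91512641, had 1.47 and 9.45 in MUT DMM, from 2 reads and 1 read, with no read in WT sham.

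The other higher places shared with the first table lay on both sides of these runs. At 91385761 MUT DMM had 14.73 and 28.34 normalised counts, against 6.36, 0 and 1.11 in WT sham. At 91524441 it had 45.65 and 56.68, against 9.54, 13.89 and 11.37 in WT sham. At 91537581 it had 69.22 and 18.89, against 1.59, 4.63 and 1.94 in WT sham, and the groups were separate in each. At 91542701 the values were 66.27 and 18.89 in MUT DMM, against 21.21, 12.73 and 15.26 in WT sham, and the shallower MUT DMM library lay among the sham libraries. At 91578661 they were 108.24 and 66.13 in MUT DMM, against 50.91, 45.15 and 26.91 in WT sham.

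A run of 3 higher rows over 19.1 kb began at 91601361, with 23.56 and 47.24 normalised counts in MUT DMM against 2.65, 8.1 and 5.83 in WT sham. Its second row, at 91603821, had 37.55 and 18.89 in MUT DMM (51 and 2 reads), against 0.53, 0 and 0 in WT sham (1, 0 and 0 reads). Past the gene end a run of 4 rows over 10.4 kb, from 91679841 to 91690220, was higher, and its last rows overlap the pseudogenes Gm9619 and Gm2875, so their reads are of uncertain origin. That run held 91686281, with 64.8 and 37.79 in MUT DMM against 31.82, 25.47 and 25.8 in WT sham. At 91704261 MUT DMM had 122.23 and 94.47, against 79.54, 91.46 and 77.12 in WT sham, a 1.31-fold higher level. The last row, at 91726581, had 30.19 and 103.92 in MUT DMM against 26.51, 25.47 and 30.24 in WT sham. There the deeper MUT DMM library lay among the sham libraries and the higher mean rested on the shallower one, with 11 reads.

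**Figure D3:**
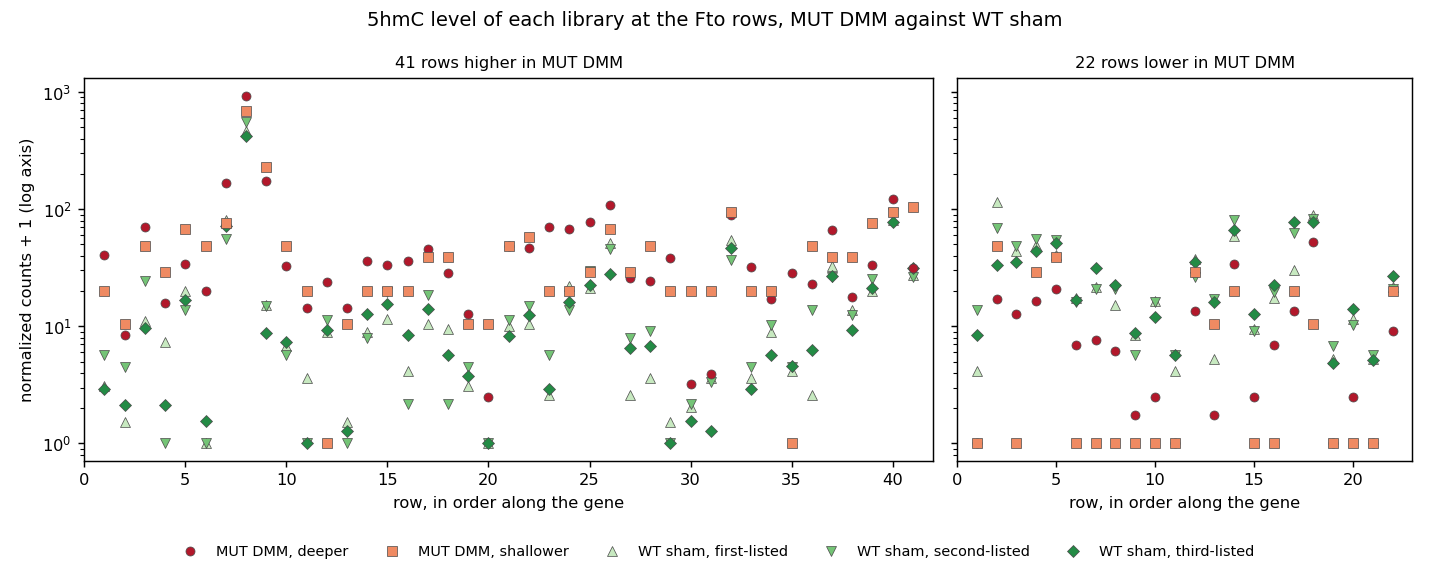
Level of each library (normalised counts + 1, log axis) at the 41 Fto rows of higher and the 22 of lower MUT DMM mean in MUT DMM against WT sham, in order along the gene. The 41 include the row that missed the adjusted p of 0.05, and in 13 of the 22 lower rows the shallower MUT DMM library sits at 1, that is, with no read.

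Most lower rows against sham lay in the second part of the gene or beyond its end, as did most higher rows. A run of 3 lower rows within 1.3 kb, from 91526641 to 91527980, began with 5.15 and 0 normalised counts in MUT DMM against 14.32, 19.68 and 21.64 in WT sham. Its last row, at 91527601, had 1.47 and 0 in MUT DMM (2 and 0 reads), against 15.38, 15.05 and 11.1 in WT sham (29, 13 and 40 reads). The MUT DMM level there rests on 2 reads, and the adjusted p in the authors' deposited table was 4e-05. A run of 3 over 23.5 kb began at 91553741, with 12.52 and 28.34 in MUT DMM against 36.59, 25.47 and 34.4 in WT sham, and went on at 91574781, with 0.74 and 9.45 in MUT DMM against 4.24, 16.21 and 15.26 in WT sham. At both of these the libraries overlapped. The run ended at 91576881, with 33.14 and 18.89 in MUT DMM against 58.33, 79.88 and 66.02 in WT sham. At 91663161 MUT DMM had 1.47 and 0, against 10.61, 9.26 and 13.04 in WT sham, and at 91407281 it had 11.78 and 0, against 42.95, 47.47 and 34.12 in WT sham. The groups were separate at 91576881, 91663161 and 91407281.

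The lower row of smallest adjusted p against sham, 5.66e-06 in the authors' deposited table, lay from 91445341 to 91445620. It had 15.46 and 28.34 normalised counts in MUT DMM, against 48.78, 54.41 and 42.72 in WT sham, with means of 21.9 ± 9.11 in MUT DMM and 48.6 ± 5.85 in WT sham, 2.22-fold lower in MUT DMM. The row just after it, at 91445681, had 19.88 and 37.79 in MUT DMM, against 39.77, 53.25 and 50.21 in WT sham. At 91634141 MUT DMM had 12.52 and 18.89, against 29.16, 61.36 and 76.01 in WT sham. At 91691161 it had 8.1 and 18.89, against 20.68, 19.68 and 25.8 in WT sham. The groups were separate in each of these 4 rows. Near the gene start, 91320821 had no read in either MUT DMM library, against 3.18, 12.73 and 7.49 in WT sham. Past the gene end, 91678521 had none either, against 4.24, 4.63 and 4.16 in WT sham.

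Rows of opposite direction could lie very close together. Against WT sham, 16 pairs of neighbouring Fto rows were less than 1 kb apart, and in 5 of them the directions were opposite, where 25.0% of such pairs were opposite over the whole table. The closest was only 20 bases apart. The row from 91537581 to 91538000 was higher in MUT DMM, and the next, from 91538021 to 91538240, had no read in either MUT DMM library, against 3.18, 4.63 and 4.72 normalised counts in WT sham. At 120 bases, the lower row at 91407281 preceded the higher row at 91407821, which had 33.14 and 66.13 in MUT DMM against 19.09, 12.73 and 15.81 in WT sham. Against WT DMM, 1 of 5 such pairs was opposite, where 24.8% were over the whole table.

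Some places were listed in both MUT DMM tables. There were 31 pairs of overlapping rows, which are 79.5% of the 39 rows of MUT DMM against WT DMM and 49.2% of the 63 rows of MUT DMM against WT sham. In 23 pairs both rows were higher in MUT DMM, in 8 both were lower, and none was opposite, where 11.5% of the 13532 such pairs over all rows were opposite. In 25 pairs the overlap covered at least 50% of both rows. The MUT DMM libraries are the same in both tables, so a MUT DMM value that is high or low enters both sides, and the shared direction is no independent check. Of the 23 shared higher places, 21 had a WT DMM mean below 5 normalised counts and 10 had a WT sham mean below 5 on the scale of the other table.

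At 5 places the bounds were identical, so reads could be set side by side for all 8 libraries. From 91603821 to 91604220 MUT DMM had 51 and 2 reads, against none in any WT DMM library and 1, 0 and 0 in WT sham. From 91537581 to 91538000 it had 94 and 2 reads, against 0, 0 and 2 in WT DMM and 3, 4 and 7 in WT sham. From 91477961 to 91478340 it had 48 and 2 reads, against 0, 6 and 3 in WT DMM and 6, 1 and 27 in WT sham. At the first place the 6 wild-type libraries together held 1 read. The third-listed WT sham library, the deepest of the sham libraries, had the most sham reads at the other places. The lower places had more wild-type reads. From 91445681 to 91445940 MUT DMM had 27 and 4 reads, against 0, 42 and 37 in WT DMM and 75, 46 and 181 in WT sham. From 91691161 to 91691420 it had 11 and 2 reads, against 1, 15 and 20 in WT DMM and 39, 17 and 93 in WT sham. Reads are not scaled for depth. Over all 1863 rows of identical bounds, each MUT DMM library had the same reads in both MUT DMM comparisons in 100% of rows.

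The counts were also split by wild-type level, which itself enters the direction of a row, so the split is a description only. In MUT DMM against WT DMM, 21 of the 22 Fto rows with a WT DMM mean of at most 5 normalised counts were higher, where 16.0% of all such rows of the table were higher. Above 5, 3 Fto rows were higher and 14 lower, where 40.2% of all such rows were higher. Against WT sham, 17 of 20 Fto rows with a WT sham mean of at most 5 were higher, where 74.3% of all such rows were, and above 5, 23 were higher and 19 lower, where 34.5% were higher. Over all rows of MUT DMM against WT DMM, higher rows were thus a smaller share at low level, and at Fto a larger one. The part that level and depth have in these directions was not tested.

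In wild-type cartilage, Fto had 6 rows after the operation, fewer than in the MUT DMM tables, and ranked 1204th of 16365 genes by rows. Within the gene bounds there were 1.13 rows per 100 kb, against 1.33 from 85 to 100 Mb on chromosome 8. All 6 were higher in WT DMM than in WT sham at low levels, with medians of 5.99 normalised counts in WT DMM and 2.4 in WT sham and a median log2 fold change of 1.41, close to 1.42 over all higher rows. The first row along the gene, at 91325101, had 0, 9.34 and 11.45 in WT DMM (0, 7 and 11 reads), against 1.92, 3.58 and 2.39 in WT sham. At 91482041 WT DMM had 0, 6.67 and 9.37, against 2.88, 2.86 and 1.2 in WT sham. At 91547741 it had 0, 5.34 and 13.54, against 2.56, 2.86 and 2.05 in WT sham. The near-empty library had no read in any of the 6, so no row separated the groups, where 1.07% of all higher rows did. Without that library all 6 separated, where 85.3% did.

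At 91575741, the fourth of these rows, WT DMM had 0, 6.67 and 10.41 normalised counts, against 1.6, 3.58 and 1.2 in WT sham. At 91694361, past the gene end, it had 0, 2.67 and 13.54 (0, 2 and 13 reads), against 1.28, 2.15 and 1.37 in WT sham. That row turned when the library with 13 reads was left out, to means of 1.34 in WT DMM and 1.6 in WT sham. The last row, from 91714901 to 91715260, had 0, 14.67 and 11.45 in WT DMM, against 1.92, 3.58 and 2.73 in WT sham. Its means of 8.71 ± 7.71 in WT DMM and 2.74 ± 0.83 in WT sham (SD, n = 3 each) differed by less than the WT DMM SD, and the authors' deposited table gives an adjusted p of 0.000751. None of the 6 rows overlapped a row of either MUT DMM table, and the nearest lay 581 bases away.

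Higher rows in mutant cartilage were not limited to Fto in this stretch of chromosome 8. In MUT DMM against WT DMM, 65.6% of 32 rows within the gene bounds were higher, and 53.5% of 43 rows in the 1 Mb before the gene and 62.7% of 51 rows in the 1 Mb after it were. From 85 to 100 Mb, 56.2% of 512 rows were higher, where the rest of the chromosome had 34.7%. Against WT sham the share was 60.7% of 56 rows in the gene, 75.0% of 68 before it and 68.4% of 76 after it. It was 63.9% of 789 rows from 85 to 100 Mb, where the rest of the chromosome had 41.3%. Rows were denser in Fto than around it, with 9.01 per 100 kb in the gene, against 4.3 before and 5.1 after it, in MUT DMM against WT DMM. Against sham the densities were 15.77 in the gene, 6.8 before it and 7.6 after it. Against sham, 3 further rows within the gene bounds are named for Gm3235, 1 higher and 2 lower, and are not among the 63.

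**Figure D4:**
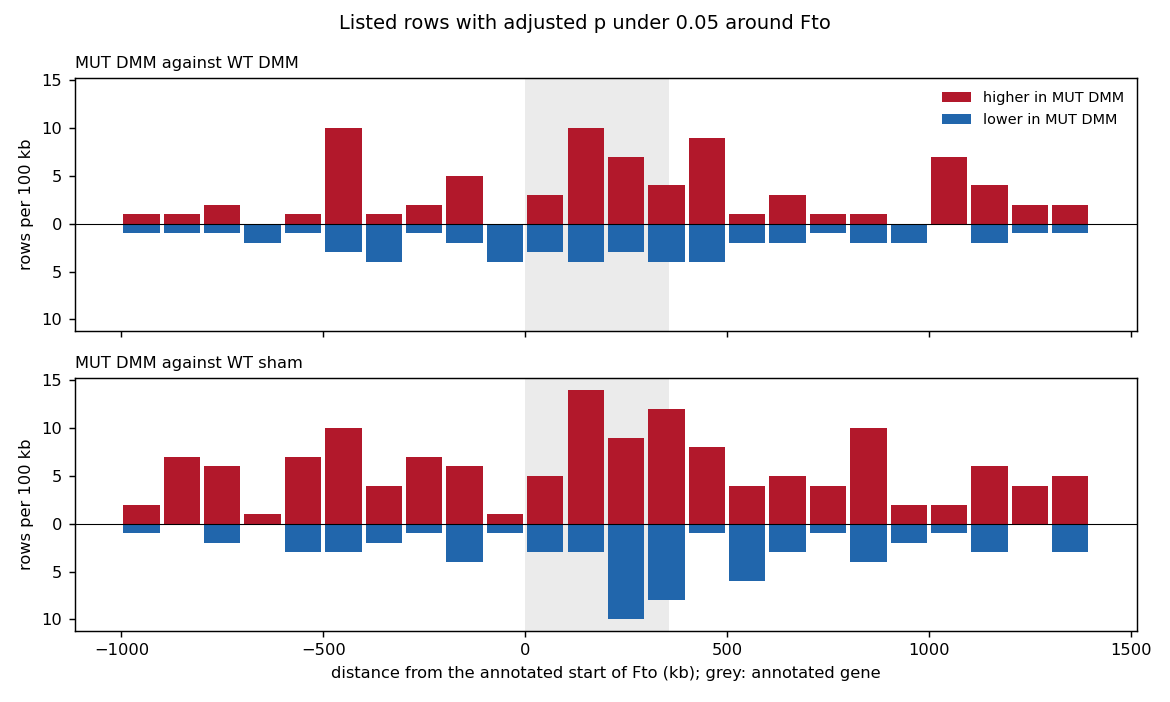
Rows with the authors' adjusted p under 0.05 per 100 kb around Fto, counted upward where MUT DMM was higher and downward where it was lower, against distance from the gene start in kb (gene in grey). Summed over the 1 Mb before the gene, the gene and the 1 Mb after it, higher rows outnumber lower ones in both MUT DMM tables. Single bins can go the other way, such as -100 to 0 kb against WT DMM, with 0 higher and 4 lower rows. The gene as a whole holds more rows per 100 kb than the 1 Mb on either side, but not every bin in it exceeds every bin outside it.

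Neighbouring genes differed among themselves in the MUT DMM tables. Chd9, a chromatin remodeller, had 11 higher and 10 lower rows against WT DMM, and 26 higher and 9 lower against WT sham. Irx5, an Iroquois homeobox gene beyond the Fto end, had 9 higher and 2 lower against WT DMM and 7 and 4 against WT sham. Irx6, of the same cluster, had 4 and 2, then 8 and 3, and the noncoding Crnde had 3 and 3, then 8 and 3. The matrix protease gene Mmp2 had 6 higher and no lower row against WT DMM, and 7 and 1 against WT sham. Rpgrip1l, which shares the promoter, had 0 higher and 4 lower rows against WT DMM, where 65.4% of all rows were lower. It had 1 and 2 against WT sham, where 56.5% were lower. The higher rows at the shared promoter are named for Fto and are not in these Rpgrip1l counts. Irx3 had 0 and 2, then 1 and 0. Aktip, Rbl2 and Lpcat2 had 3 and 1, 2 and 1, and 2 and 1 against WT DMM, and 2 and 3, 6 and 1, and 3 and 1 against WT sham. Over the 10 neighbours the median log2 fold change of the rows was 0.97 and 1.54 in these tables, where it was -0.8 and -1.05 over all rows. For Fto the same medians were 2.12 and 1.28.

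Other genes of the m6A and TET systems were counted by whether they held a higher or a lower row. Of all genes with a row, 60.0% held a higher and 79.8% a lower one in MUT DMM against WT DMM, 64.0% and 76.6% in MUT DMM against WT sham, and 94.9% and 14.9% in WT DMM against WT sham. Of 9 m6A writer genes, 6 and 7 had a row in the MUT DMM tables. Among them 2 held a higher and 5 a lower row in MUT DMM against WT DMM, and 3 and 6 did in MUT DMM against WT sham. Their median log2 fold changes were -0.72 and -5.29, where they were -0.8 and -1.05 over all rows. With a pseudocount of 1 they were -0.61 and -2.6, where they were -0.63 and -0.98 over all rows. Mettl3, the catalytic subunit, had a single higher row against WT DMM, and Virma, a scaffold of the complex, had 5 lower. The other m6A eraser, Alkbh5, had 1 higher and 1 lower row against WT DMM and none in the other tables. Of 9 reader genes, 8 and 7 had a row, and 5 held a higher and 7 a lower row against WT DMM (median -0.84), and 7 and 5 did against WT sham (median 0.48). Of 7 further AlkB genes, 3 and 4 had a row, and 1 held a higher and 2 a lower row against WT DMM (median -1.39), and 1 and 3 against WT sham (median -1.21). Among the 3 TET genes, none held a higher row and all 3 held a lower one against WT DMM (median -0.83), and 2 and 3 did against WT sham (median -0.79). Tet1 itself had 4 lower rows and no higher one in each MUT DMM table, where 65.4% and 56.5% of all rows were lower. So few rows show nothing particular to Tet1. In WT DMM against WT sham, 6 writers, 7 readers, 1 AlkB gene, 2 TET genes and 5 neighbours had a row. Of these, a higher and a lower row were held by 5 and 1 writers, 7 and 1 readers and 1 and 0 AlkB genes. They were held by 1 and 1 TET genes and by 5 and 1 neighbours.

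Genes known from cartilage and from other tissues were counted in the same way and are read against the same shares, which are of genes with a row. Of 10 cartilage genes, 8, 8 and 4 had a row in the 3 tables, and 6 held a higher and 6 a lower row in MUT DMM against WT DMM, 8 and 3 did in MUT DMM against WT sham, and 3 and 1 in WT DMM against WT sham. Of 6 blood cell genes, 5, 4 and 4 had a row in the same order of tables. Higher and lower rows were held by 1 and 5, 3 and 3, and 4 and 0 of them. Of 4 muscle genes, 4, 2 and 3 had a row, with higher and lower rows in 4 and 1, 1 and 2, and 2 and 2. Of 3 endothelial genes, 3, 3 and 2 had a row, with 1 and 3, 1 and 3, and 2 and 2. Of 3 fat cell genes, 2, 1 and 1 had a row, with 1 and 1, 1 and 1, and 1 and 0. The median log2 fold changes in the same order of tables were -0.82, 0.4 and 1.49 for cartilage genes, where they were -0.8, -1.05 and 1.39 over all rows. They were -1.57, 2.25 and 1.52 for blood cell genes, 0.76, 0.27 and 1.28 for muscle genes, -0.87, -3.41 and 1.42 for endothelial genes and 0.1, 0.95 and 1.02 for fat cell genes. With 1 to 32 rows each, these medians are descriptions. These tables list changed regions and not transcripts, so the labelled tissue was not checked by expression. The part of tissue makeup in the Fto rows was not tested.

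Genes with a mixture of directions like that of Fto were sought among 327 genes with at least 15 rows in MUT DMM against WT DMM and at least 5 in MUT DMM against WT sham. Likeness was the sum of the differences in the share of higher rows in these tables. The nearest were 9330185C12Rik (60.0% and 68.8% higher, 5.8 percentage points from Fto), Edem1 on chromosome 6 (57.1% and 66.7%, 6.6 points) and Ascc3 on chromosome 10 (60.0% and 71.4%, 8.4 points). Edem1 takes part in the disposal of misfolded proteins of the endoplasmic reticulum, and Ascc3 is a helicase. Their differences in level were smaller than at Fto. The median log2 fold change against WT DMM was 0.75, 0.58 and 0.6 for these genes in the same order, where it was 2.12 at Fto, and against WT sham it was 0.48, 0.82 and 0.67, where it was 1.28 at Fto.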

How the data were processed

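The submitters' processing notes name mm10 as genome build and, as tools, bedtools, SAMtools, HISAT2 2.1.0, Trim Galore 0.5.0 and bcl2fastq 2.20.0. The region caller and its test are not given in these sources. Each of the deposited tables gives, per region, the signal of each library (normalised counts, coverage scaled by a factor not given) and p-values and adjusted p-values, per the file headers. Regions join windows of 200 bases that step by 20.

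Folds were recomputed from the means with the identical MUT DMM entry counted once, since the deposited fold column holds spreadsheet errors. Each library's values were whole multiples of 1 step in 100% of rows (tolerance 0.02), read as 1 read, a method tested on simulated data. No count model was fitted, because only rows chosen by the authors' p are listed. Reads carry no molecular identifiers, and SD and n cover the spread between libraries.

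Named rows were the 4 of smallest adjusted p per direction and table, the first and last, those overlapping another table's rows, and those at the promoter. A few others were named after their values were seen. The members and lists were chosen with earlier results of these data known. Gene bounds and sequence are RefSeq's (GRCm38.p6). Python 3.11.15 and pandas 2.3.3 were used. Alternatives were a stricter p, a minimum level of 10, a pseudocount of 1, the near-empty library left out, and each library left out in turn.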

Additional observations from a re-analysis of the deposited data

How the results depend on the processing

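Counts of Fto rows and medians over them kept their direction and stayed within 1.5 times, or within the replicate spread, in 66 recomputations and moved in 9. With a minimum mean of 10 normalised counts in the higher group, 14 rows were higher in MUT DMM than in WT DMM, and 0 were higher in WT DMM than in WT sham. At an adjusted p under 0.001 the lower rows were 9 in MUT DMM against WT DMM and 13 against WT sham, and 1 was higher in WT DMM than in WT sham. With a pseudocount of 1, the median log2 fold change of MUT DMM against WT DMM was 1.71 in place of 2.12, and of its higher rows alone 2.62 in place of 4.08. Without the near-empty library 15 lower rows of MUT DMM against WT DMM and 6 rows of WT DMM against WT sham separated the groups. Leaving out each library in turn left 24 higher and 15 lower rows in MUT DMM against WT DMM, gave 39 to 40 higher and 22 to 23 lower against WT sham, and 5 to 6 higher and 0 to 1 lower in WT DMM against WT sham. Of single rows, 539 recomputations kept the direction and 2 reversed. Without the deeper MUT DMM library, the row at 91670001 had 0 normalised counts in MUT DMM against 3.42 in WT sham, a difference of -3.42 where the others left out gave 10.08 to 23.82. At 91694361, WT DMM minus WT sham ranged between -0.26, with the third WT DMM entry left out, and 6.51. Without the shallower MUT DMM library, 11 of 34 folds against WT DMM and 25 of 57 against WT sham moved by more than 1.5 times, and with the third WT DMM entry left out 4 of the 6 in WT DMM against WT sham did. The causes were not tested. No paired analysis was possible because the columns carry no replicate numbers. Depth limits the low levels, where 1 read of the near-empty library exceeds most Fto levels of WT DMM.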
